A study of Homo sapiens with 8 samples.

Results

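Chemokines and interleukins are the secreted signals by which tumour cells speak to white blood cells, to vessels and to each other, and 84 genes of this kind were followed here in 5 human cancer cell lines. A gene was taken when its name on the array began with CXCL or CCL and a number, or was IL, a number and at most 1 letter. Of 43317 gene names on the array, 84 met this rule, with 109 probes. The rule took in 78 ligands and 6 receptors whose names have the same form, namely IL4R, IL6R, IL7R, IL9R, IL21R and IL23R.

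The lines were PC3 (a prostate cancer line without androgen dependence), SK-MES-1 (squamous cell lung cancer), SW1990 and PANC1 (pancreatic cancer) and MDA-MB-231 (breast cancer). PC3 cells received si-PIR-2 or si-PIR-3, siRNAs against PIR, which encodes the nuclear iron-binding protein pirin. SK-MES-1 cells received miR-144-5p or miR-144-3p, PANC1 cells received miR-130-5p or miR-130-3p, and both SW1990 and MDA-MB-231 cells received miR-204-5p. Each of the 8 transfections was hybridised once, on 1 array, in Cy5 (red) against mock cells of the same line in Cy3 (green), which had received no RNA. Mock cells of PC3, SK-MES-1 and PANC1 therefore appear on 2 arrays each, and mock cells of SW1990 and MDA-MB-231 on 1. The labels do not state whether the mock RNA on the 2 arrays of a line came from 1 extract or culture, and it was counted as 1 control sample. No dyes were swapped, so an effect of the dye and an effect of the transfection cannot be told apart, and mock cells do not control for the delivery of an unrelated RNA.

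CXC chemokines that carry a glutamate-leucine-arginine motif before the first cysteines (CXCL1 to CXCL3, CXCL5, CXCL6 and CXCL8) bind CXCR2 and draw neutrophils. CXCL9, CXCL10 and CXCL11 lack that motif, are induced by interferons and draw T cells through CXCR3. CC chemokines draw monocytes, T cells and eosinophils, and interleukins such as IL1B, IL6 and IL11 act on epithelium and stroma as well as on leukocytes. Many of these genes are read out by NF-kB, AP-1 and interferon-activated factors.

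The miRNAs whose labels name a single mature sequence are shown because they are the agents behind 4 of the 8 arrays. Capitals mark the seed, bases 2 to 8 from the 5′ end, by which a miRNA pairs with its targets. The sequences are from RefSeq, on GRCh38.p14, and the 3 seeds differ from each other. The genes lie at chr9:70810031-70810052 (minus strand) for miR-204-5p, chr17:28861583-28861604 (minus strand) for miR-144-5p and chr17:28861548-28861567 (minus strand) for miR-144-3p.
hsa-miR-204-5p: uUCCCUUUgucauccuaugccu
hsa-miR-144-5p: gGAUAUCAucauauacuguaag
hsa-miR-144-3p: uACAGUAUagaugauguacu

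Promoter stretches of 7 CXC genes and of IL6 are shown because these genes are named in the results that follow and their start regions hold a shared short pattern. The 250 bases before the start of transcription of 63 members were in the RefSeq promoter table (GRCh38.p14) and were searched on both strands for GGNNTTTCC, a short form of the NF-kB site in which N is any base. All 6 of the neutrophil-drawing CXC genes held a match, as did 15 of the 63 members (23.8%) and 1926 of all 35116 promoters in the table (5.48%). The match was not common to all groups. It was found in 1 of 17 CC chemokine genes (CCL20) and in 2 of 3 among CXCL9 to CXCL11. In the interleukin-1 family it was found in 0 of 6, in the interleukin-12 family in 0 of 3 and in the other CXC genes in 0 of 4. Only genes with a match are printed. Each stretch runs 5′ to 3′ on the strand of its gene, with the matches in capitals. In CXCL10 and CXCL11 the match lies on the opposite strand, and CXCL1, CXCL2 and CXCL3 hold a pair of matches.
CXCL1, chr4:73869290-73869373 (plus strand): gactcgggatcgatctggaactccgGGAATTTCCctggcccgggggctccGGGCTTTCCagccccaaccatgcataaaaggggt
CXCL2, chr4:74099215-74099297 (minus strand): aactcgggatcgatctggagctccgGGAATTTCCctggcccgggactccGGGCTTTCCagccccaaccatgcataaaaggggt
CXCL3, chr4:74038709-74038792 (minus strand): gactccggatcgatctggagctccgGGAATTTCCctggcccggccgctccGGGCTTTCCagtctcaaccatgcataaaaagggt
CXCL6, chr4:73836564-73836622 (plus strand): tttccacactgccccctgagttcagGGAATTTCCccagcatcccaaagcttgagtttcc
CXCL8, chr4:73740453-73740511 (plus strand): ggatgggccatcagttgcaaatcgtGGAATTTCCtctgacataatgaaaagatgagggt
CXCL10, chr4:76023640-76023698 (minus strand): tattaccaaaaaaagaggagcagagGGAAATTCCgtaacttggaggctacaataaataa
CXCL11, chr4:76036112-76036170 (minus strand): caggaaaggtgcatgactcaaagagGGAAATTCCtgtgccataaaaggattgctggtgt
IL6, chr7:22727103-22727161 (plus strand): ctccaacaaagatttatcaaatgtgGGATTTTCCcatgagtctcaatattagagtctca

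The stretches of CXCL1 and CXCL3 were identical at 77 of 84 positions, and that of CXCL5, not printed, matched CXCL6 at 58 of 59. A second pattern, TTCNNTTTC, the core of an interferon-stimulated response element, was found before 12 of the 63 members (19.0%), CXCL9 and CXCL10 among them, and in 6.88% of all promoters. CXCL11 held no match to these letters in this window. A match is a run of letters and was not tested as a binding site.

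Each array carried 58201 probes, of which 41.4% to 46.4% were well above background in Cy3 and 49.8% to 54.6% in Cy5 by the scanner software, and none was saturated. All 8 arrays lay on 1 slide and were scanned in 1 run, and their number limits the precision. PIR served as the check of the labels. Its log2 ratio was -5.46 with si-PIR-2 and -4.27 with si-PIR-3, between -0.24 and 0.05 on 5 other arrays, and -1.59 with miR-130-5p in PANC1. The epithelial keratin gene KRT18 was well above background in mock cells of all 5 lines, and so was CD14 of the immune markers. PTPRC, the pan-leukocyte marker, was well above background in all 5 lines, at 0.14 to 0.26 of the 75th percentile of the Cy3 signals. Of the markers of origin, the pancreatic factor PDX1 was not well above background in either pancreatic line and KLK3 was not in PC3.

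A level below is the processed Cy3 signal of mock cells divided by the 75th percentile of that channel on the same array. Levels are compared between lines for 1 probe and never between genes. The number of members well above background in mock cells was 30 in PC3, 32 in SK-MES-1, 33 in SW1990, 32 in MDA-MB-231 and 21 in PANC1. In all, 16 members were detected in mock cells of every line, 26 in 1 to 4 lines and 42 in none. The 2 mock channels of a line differed by a median of 0.09 (PC3), 0.11 (SK-MES-1) and 0.08 (PANC1) on the log2 scale over the 30, 31 and 21 detected members. The largest of these differences was 0.86, for CCL20 in SK-MES-1.

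The neutrophil-drawing CXC genes were the most widely detected group, with all 6 in PC3 and SW1990, 5 in MDA-MB-231, 4 in SK-MES-1 and 3 in PANC1. CXCL1 stood at 47.8 and 48.4 on the PC3 arrays, 71.5 in SW1990, 7.34 and 7.62 in PANC1, 3.39 and 3.11 in SK-MES-1 and 3.74 in MDA-MB-231. SW1990 was thus 1.49-fold above PC3 and 22.0-fold above SK-MES-1, and SK-MES-1 and MDA-MB-231 lay close to each other. CXCL5, a close relative of CXCL6, stood at 41.0 and 40.1 in SK-MES-1 and 41.0 in SW1990, which differ by no more than the 2 SK-MES-1 arrays do, and at 0.451 in MDA-MB-231. CXCL6 was high in PC3 alone, at 2.30 and 2.09, against 0.145 in SW1990 and no detection in the other 3 lines. CXCL2 was lowest in PANC1, at 0.519 and 0.540 against 18.3 in SW1990, and CXCL3 was not well above background in PANC1. CXCL8, also known as interleukin-8, followed the order PC3 (1.69 and 1.80), SW1990 (0.742) and MDA-MB-231 (0.365), with the other 2 lines not well above background.

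CCL2, which draws monocytes, was a gene of PANC1 (7.31 and 7.51) and SK-MES-1 (5.71 and 5.69), and in the other 3 lines it was not well above background. The bound for PANC1 was at least 8.09-fold over PC3. CCL5 and CCL20, which draw T cells and CCR6-bearing cells, were highest in SW1990, at 4.14 and 8.25. CCL5 was not well above background in PC3, and its level in PANC1 was 0.828 and 0.930. CCL28, a mucosal chemokine, was 3.7 and 3.55 in SK-MES-1, 0.845 to 1.02 in PC3, MDA-MB-231 and PANC1, and 0.269 in SW1990. CCL16 lay between 1.67 and 2.18 and CCL24 between 3.63 and 7.84 over the 8 arrays. CXCL10 and CXCL11 were near the detection limit: CXCL10 was detected in mock SK-MES-1 cells only, at 0.178 and 0.169, and CXCL11 in SK-MES-1 (0.217 and 0.207) and MDA-MB-231 (0.193).

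Among interleukins, IL1B, the fever cytokine, stood at 40.0 in SW1990 and 34.5 and 34.0 in PC3, 2.68 and 2.24 in SK-MES-1 and 0.403 in MDA-MB-231, and was not well above background in PANC1. IL33, an alarmin kept in the nucleus, was detected in PC3 (2.68 on both arrays) and weakly in SW1990 (0.138). IL11, a gp130 cytokine of bone metastasis and fibrosis, was highest in MDA-MB-231 at 24.6, which was 6.53-fold above SW1990 and 38.2-fold above SK-MES-1. IL6, the acute phase cytokine, was 4.96 in SW1990, 4.26 in MDA-MB-231, 1.53 and 1.51 in PC3 and 1.06 and 1.03 in SK-MES-1, and was not well above background in PANC1. IL32, a proinflammatory protein of epithelium and lymphocytes, was lowest in SW1990, at 0.166 against 5.57 and 5.56 in SK-MES-1. IL18 was present throughout, from 3.9 in MDA-MB-231 to 10 in SW1990. The receptor of IL7, IL7R, was 8.28 and 7.51 in PC3, 2.81 in MDA-MB-231, 1.29 in SW1990 and 0.309 and 0.257 in SK-MES-1. PANC1 was the line with fewest of these genes, and it lacked detection of IL1B, IL6, IL7R, CXCL3, CXCL6 and CXCL8.

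**Figure D1:**
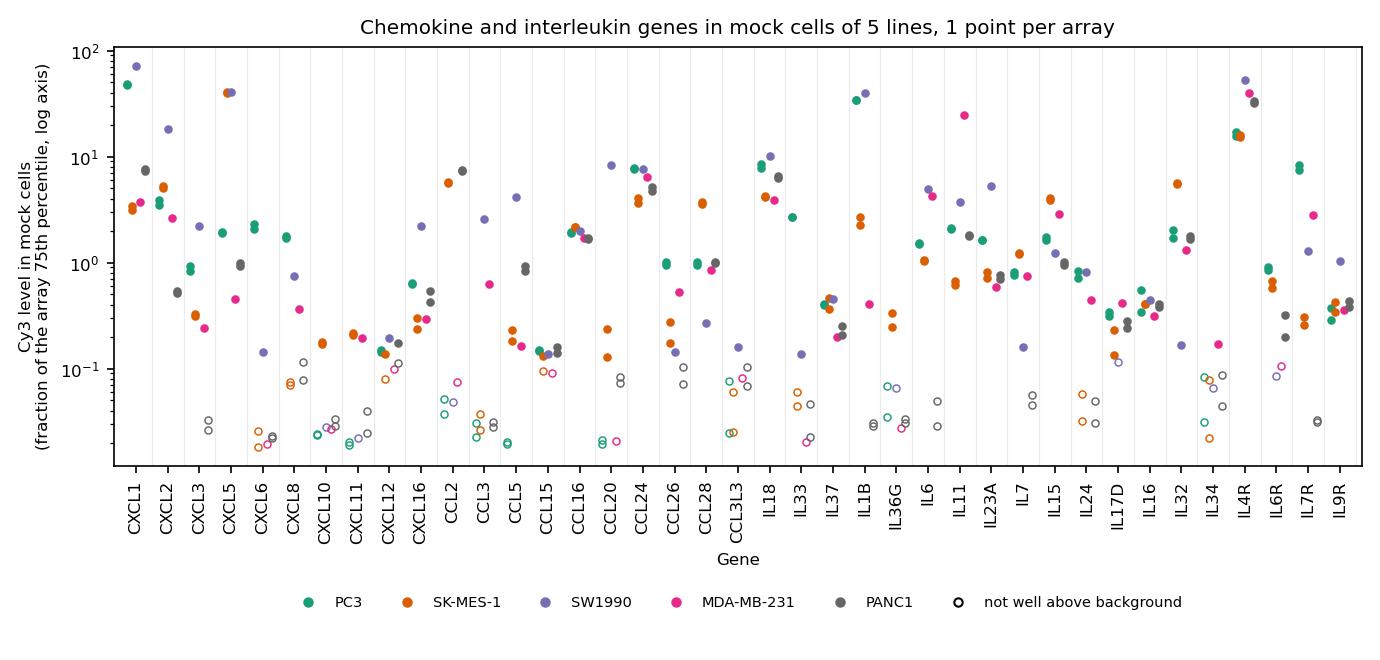
Level of 39 chemokine and interleukin genes in mock cells, as the Cy3 signal over the array's 75th percentile (log axis), with 1 point per array coloured by cell line and open points where the probe was not well above background. PC3, SK-MES-1 and PANC1 have 2 points each, from the mock channels of 2 arrays; CXCL1 runs from 3.11 in SK-MES-1 to 71.5 in SW1990, while CCL16 stays between 1.67 and 2.18.

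The ratio of transfected over mock cells is the scanner ratio, on the log2 scale, where 1 is a doubling. It was read only where at least 1 channel was well above background. By that rule 23 members were read on all 8 arrays, 30 on some and 31 on none, and 16 members had both channels well above background on all 8 arrays. The 31 unread genes include CCL7, CCL8, CXCL13, IL2, IL4, IL10 and IL12B, mostly products of leukocytes. When only 1 channel was well above background the spot signals were mostly near the floor, the ratio has only a bound, and the bounds for members past 1, where one could be had, went up to 1.49-fold. Counts with both channels above background are therefore given beside the wider ones. With 1 array per transfection there is no test for a single array.

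The share of members past 1 was above the share of all genes in most comparisons. With si-PIR-2 in PC3, 9 of 40 members read were at least 1 higher (5.83% of all genes) and 3 at least 1 lower (2.87%), and with both channels above background 4 and 2 of 30 (1.4% and 3.18% of all genes). With si-PIR-3, 3 of 37 were higher (3.92%) and 4 lower (2.25%), and with both channels 1 and 4 of 31 (0.704% and 2.11%). With miR-144-5p in SK-MES-1, 14 of 40 were higher (4.17%) and 1 lower (1.93%), and with both channels 8 and 1 of 32 (0.88% and 1.77%). With miR-144-3p, 13 of 41 were higher (4.54%) and 0 lower (1.1%), and with both channels 7 and 0 of 32 (0.577% and 1.09%). SK-MES-1 thus held the highest shares of higher members with both channels above background, 25% with miR-144-5p and 21.9% with miR-144-3p. With miR-204-5p in SW1990, 2 of 39 were higher (4.6%) and 3 lower (1.93%), and with both channels 1 and 2 of 32 (0.752% and 1.97%). With miR-204-5p in MDA-MB-231, 1 of 38 was higher (3.38%) and 3 lower (1.87%), and with both channels 1 and 2 of 30 (0.66% and 1.66%). With miR-130-5p in PANC1, 10 of 36 were higher (7.59%) and 2 lower (6.17%), and with both channels 2 and 2 of 23 (3.59% and 6.44%). With miR-130-3p, 12 of 35 were higher (6.41%) and 1 lower (1.91%), and with both channels 4 and 1 of 21 (1.82% and 2.11%). With normexp ratios the members past 1, higher and lower, were 2 and 0 with si-PIR-2, 0 and 2 with si-PIR-3, 3 and 1 with miR-144-5p, 4 and 0 with miR-144-3p, 0 and 0 on both miR-204-5p arrays, 1 and 0 with miR-130-5p and 3 and 0 with miR-130-3p. Centring each array on its median moved the split to 2 and 5 in SW1990, 0 and 3 in MDA-MB-231 and 8 and 3 with miR-130-5p. The normexp and centred counts are over the same members read. The shares of all genes with those ratios are not given, so these counts cannot be read against the background. The 2 miR-204-5p arrays held the fewest members past 1, and their counts of 1 to 3 are too small to read against the background.

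**Figure D2:**
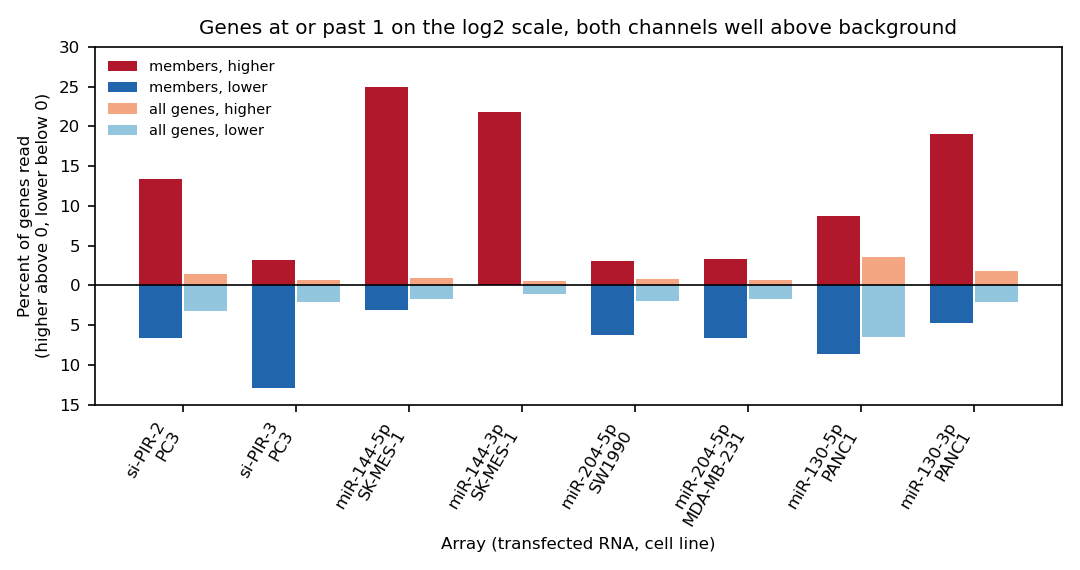
Percent of genes at or past 1 on the log2 scale on each array, higher above and lower below the zero line, among genes with both channels well above background, for the 84-gene set (dark bars, 21 to 32 genes read per array) and for all genes (light bars). The members' bar for higher genes stands at 25% with miR-144-5p and 21.9% with miR-144-3p in SK-MES-1, against 0.88% and 0.577% of all genes.

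**Figure D3:**
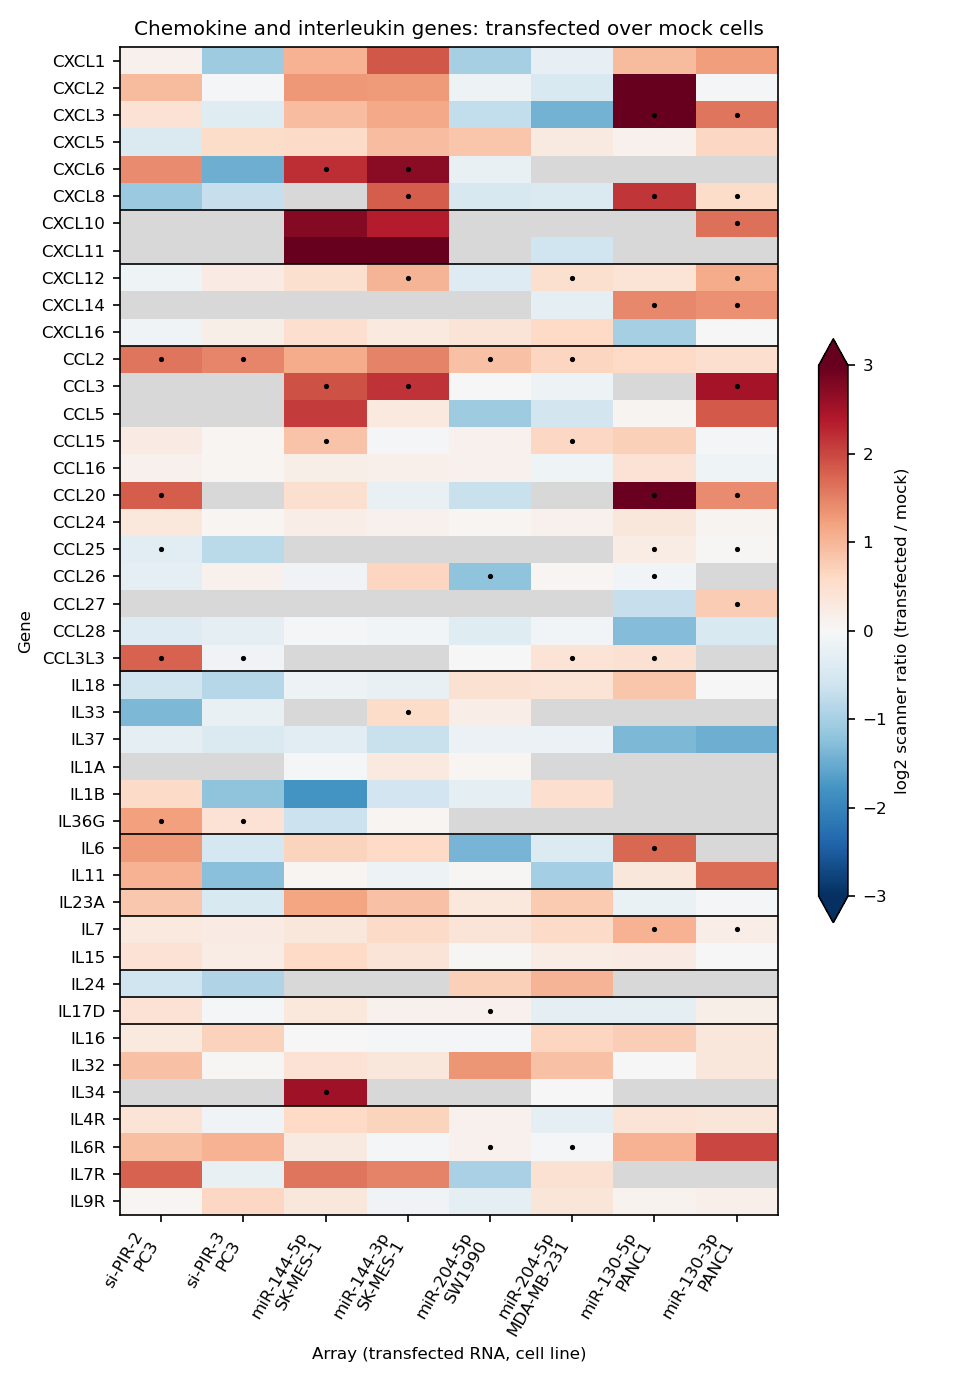
Scanner log2 ratio of transfected over mock cells for the 43 members with both channels well above background on at least 1 array, grouped by family (horizontal lines). Grey cells were not read, a dot marks a ratio with 1 channel well above background, and colours saturate at 3; the red block in the SK-MES-1 columns is CXCL10 and CXCL11.

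In SK-MES-1, 8 of the 32 members with both channels above background were at least 1 higher with miR-144-5p and 7 of 32 with miR-144-3p, and the T cell chemokine genes CXCL11 and CXCL10 had the highest ratios among them. The 2 arrays share mock cells, so their values are set side by side and not counted as independent. Intensities are mean spot signals before background and dye correction, for which Cy5 ran above Cy3 on every array. CXCL11 (probe at chr4:76955615-76955674, hg19) read 32.6 in mock cells and 188 with miR-144-5p, and 31 and 186 with miR-144-3p. The log2 ratios were 3.16 and 3.15, or 8.92-fold and 8.90-fold. CXCL10 (chr4:76943520-76943579, hg19) went from 28.2 to 103 with miR-144-5p and from 27.6 to 82.8 with miR-144-3p, log2 ratios of 2.75 and 2.36. A second CXCL10 probe read 2.04 and 1.75. Since mock cells lay near the floor, these sizes depend on the background correction: with normexp they were 1.39 and 1.30 for CXCL11 and 0.86 and 0.62 for CXCL10. CXCL9, the remaining member of that trio, was well above background in 1 channel only, with miR-144-5p.

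Of the neutrophil-drawing CXC genes detected in both channels, 2 of 4 were past 1 with miR-144-5p and 3 of 4 with miR-144-3p, with medians of 0.98 and 1.20 against 0.00 and -0.01 over all genes. CXCL1 went from 178 to 532 and from 155 to 888, log2 ratios of 1.04 and 1.87, with 1.01 and 1.65 for a second probe. CXCL2 read 1.29 and 1.27, and its second probe 0.82 and 1.11. CXCL3 read 0.92 and 1.14, and CXCL5, already bright in mock cells, 0.57 and 0.93. All 4 genes lie in 1 cluster on chromosome 4, and 10 of the 14 CXCL members lie on that chromosome.

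Of the CC chemokines with both channels above background, 2 of 7 were past 1 with miR-144-5p and 1 of 8 with miR-144-3p, with medians of 0.20 and 0.14. CCL2 (probe at chr17:32584050-32584109, hg19) went from 304 to 1013 with miR-144-5p and from 284 to 1337 with miR-144-3p, log2 ratios of 1.12 and 1.49. CCL5 read 31.8 in mock cells and 87.9 with miR-144-5p, and 34.2 and 43.8 with miR-144-3p, log2 ratios of 2.10 and 0.30. CCL28, detected in mock cells of every line and highest in SK-MES-1, read -0.05 and -0.07, CCL20 0.49 and -0.21 and CCL26 -0.10 and 0.64. IL7R read 1.61 and 1.48, and IL23A, a subunit of interleukin-23, 1.17 and 0.87. Of the interleukin-1 family, 5 members had both channels above background with each arm, with medians of -0.34 and -0.22. IL1B had 140 in mock cells and 73.3 with miR-144-5p, and 118 and 129 with miR-144-3p, log2 ratios of -1.79 and -0.57. IL1B was the only member with both channels above background that was past 1 in the lower direction on either SK-MES-1 array. IL37 read -0.34 and -0.68 (-0.04 and -0.12 with normexp), IL18 -0.15 and -0.22, and IL36G, an epithelial cytokine of this family, -0.66 and 0.05 from dim spots of 35.0 in mock cells and 32.0 with miR-144-5p.

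**Figure D4:**
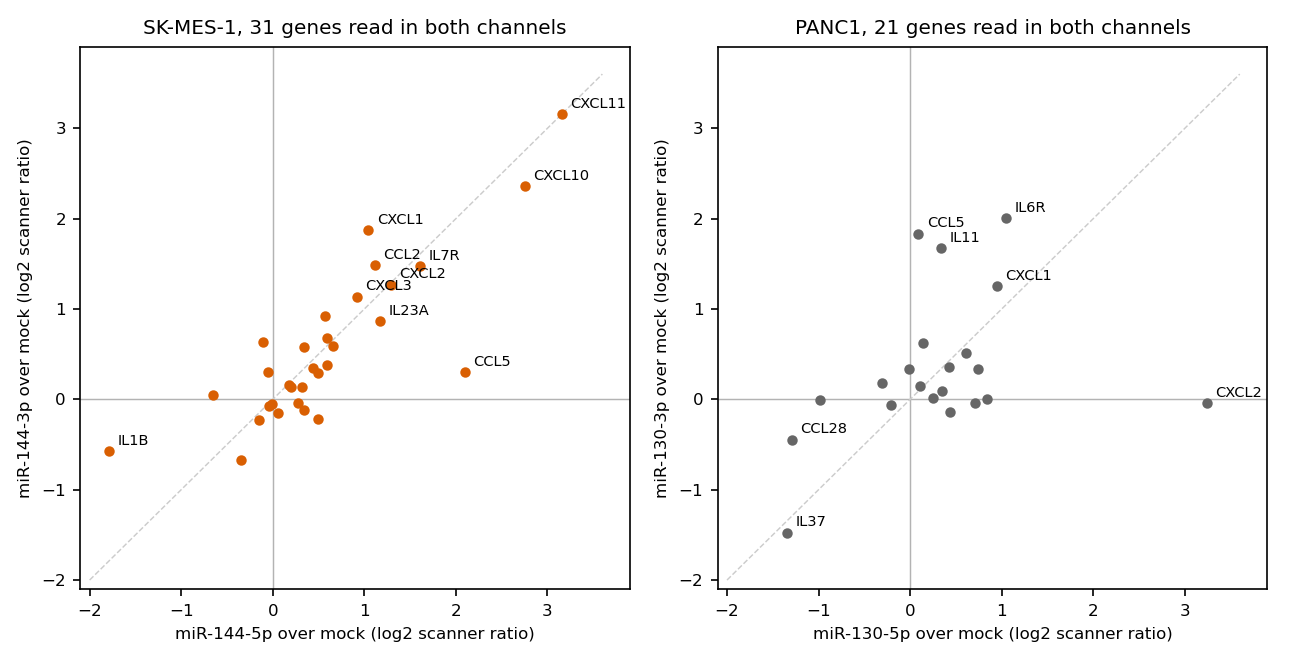
Scanner log2 ratios over mock cells for the 5p arm (horizontal) and the 3p arm (vertical) of miR-144 in SK-MES-1 (31 genes) and of miR-130 in PANC1 (21 genes), for members detected in mock and transfected cells with each arm, 1 array per arm; the dashed line marks equal values and both arms share mock cells. CXCL11 and CXCL10 lie near the line in SK-MES-1, whereas CCL5 there and CXCL2, CCL5 and IL11 in PANC1 lie far from it.

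In PANC1, the line with the fewest detected members, the highest ratios with both channels above background were those of CXCL2 with miR-130-5p and of IL6R, CCL5 and IL11 with miR-130-3p, against shared mock cells. CXCL2 went from 43.7 to 283 with miR-130-5p and from 43.7 to 57.0 with miR-130-3p, log2 ratios of 3.24 and -0.04. A second CXCL2 probe read 1.54 and 0.69, so the probes disagree on the size and on miR-130-3p. CXCL3 read 22.1 in mock cells, not well above background, and 58.8 with miR-130-5p, at least 1.49-fold higher, and CCL20 read 24.0 and 57.0, at least 1.44-fold higher.

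With miR-130-3p, CCL5 went from 69.0 to 318 and IL11 from 98.0 to 452, log2 ratios of 1.83 and 1.68. The values with miR-130-5p were 0.09 for CCL5 and 0.34 for IL11. CXCL1 was higher with both, from 331 to 782 and from 329 to 1386, log2 ratios of 0.95 and 1.26, with a second probe at 1.05 and 0.93. IL6R, the ligand-binding chain of the interleukin-6 receptor, read 1.05 and 2.01, but its second probe 0.45 and 0.51. The lower genes were CCL28, at -1.29 and -0.45, and IL37, an inhibitory member of the interleukin-1 family, at -1.35 and -1.48. IL37 signals were dim, with 31.5 in mock cells and 23.1 with miR-130-5p, and the normexp values were -0.18 and -0.15. CXCL16, a membrane-bound chemokine, read -0.99 and -0.01, with -0.07 and -0.38 for a second probe.

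In PC3, several members read with opposite signs on the si-PIR-2 and si-PIR-3 arrays, while PIR itself was low on both. CXCL6 (probe at chr4:74703368-74703427, hg19) read 150 in mock cells and 683 with si-PIR-2, but 141 and 86.3 with si-PIR-3. Its log2 ratios were 1.42 and -1.47. IL11 (chr19:55875788-55875847, hg19) read 118 and 388 with si-PIR-2 and 121 and 83.7 with si-PIR-3, log2 ratios of 1.04 and -1.26. IL1B went from 1419 to 4488 and from 1460 to 1073, log2 ratios of 0.58 and -1.21. IL6 read 1.27 and -0.52, IL23A 0.82 and -0.46, and CXCL1 0.12 and -1.06. IL7R was 347 in mock cells and 2235 with si-PIR-2 against 331 and 449 with si-PIR-3, log2 ratios of 1.76 and -0.22.

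Subtracting the si-PIR-3 ratio from the si-PIR-2 ratio, a comparison chosen after the values were seen, left 7 of 30 members at least 1 higher with si-PIR-2 (3.43% of all 19069 genes) and 1 at least 1 lower (3.6%). The 7 were CXCL6 (2.89), IL11 (2.30), IL7R (1.98), IL1B (1.79), IL6 (1.79), IL23A (1.28) and CXCL1 (1.18), and the 1 was IL33 (-1.12). With 1 array per siRNA the difference has no test. If the mock RNA is the same on both arrays, the difference compares the transfected cultures with each other.

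Other members kept 1 direction with both siRNAs. CXCL8 read -1.12 and -0.70, with 96.2 in mock cells and 82.5 with si-PIR-2, and 102 and 97.0 with si-PIR-3. IL18, an inflammasome product, read -0.60 and -0.86, IL24, a cytokine of the interleukin-10 family, -0.60 and -0.91, and IL33 -1.35 and -0.23. IL6R read 0.89 and 1.05, while its second probe read -0.18 and 0.06. CCL2 read 1.61 and 1.47, but 21.9 and 23.2 in mock cells against 26.2 and 27.7 with the siRNAs put it at 1.05-fold and 1.09-fold higher at least, and no size can be read. In limma's test of the mean of both arrays against 0, 0 of 37 members passed a Benjamini-Hochberg adjusted p of 0.05, nor did any of 22480 genes (0% higher and 0% lower). At an unadjusted p under 0.05 there were 5 higher and 3 lower members, 21.6% of those tested against 10.4% of all genes. Of the higher ones, CCL2, CCL19, IL27 and IL36G had mock cells not well above background on either array. Their ratios have at most a bound, so the 21.6% counts ratios of which no size can be read. The lowest adjusted p of a member was 0.398, for CCL2.

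**Figure D5:**
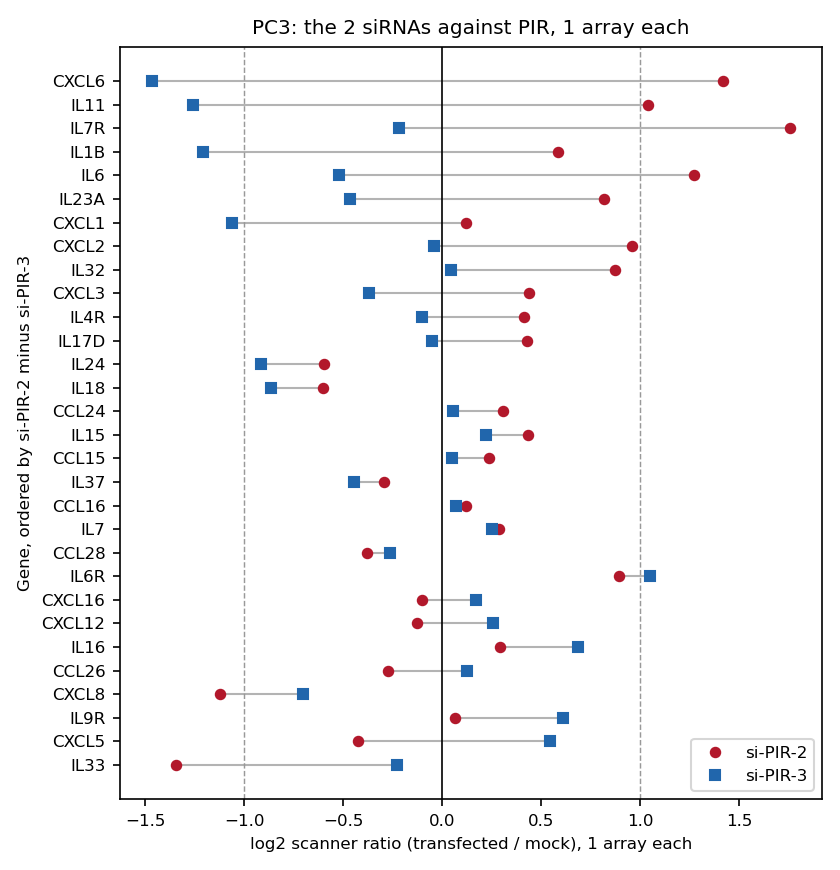
Scanner log2 ratios over mock PC3 cells with si-PIR-2 (circles) and si-PIR-3 (squares) for the 30 members detected in mock and transfected cells of each, ordered by the difference; 1 array each, so no error bars, with dashed lines at -1 and 1. CXCL6 spans 1.42 to -1.47 and IL11 1.04 to -1.26, while IL18, IL24 and CXCL8 lie below 0 with both.

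With miR-204-5p, 3 members with both channels above background were past 1 in SW1990 and 3 in MDA-MB-231. IL6 read 209 in mock SW1990 cells and 147 with miR-204-5p, a log2 ratio of -1.41, and 196 and 221 in MDA-MB-231, a ratio of -0.42. CCL5 was lower in both, at -1.06 and -0.55, and so was CXCL3, at -0.75 and -1.42. With normexp these were -0.80 and -0.12 for CCL5 and -0.46 and -0.21 for CXCL3. Both genes were dim in MDA-MB-231, with 29.5 in mock cells and 26.0 with miR-204-5p for CCL5, and 32.2 and 24.0 for CXCL3. CXCL1 read -0.99 in SW1990 (-0.83 for a second probe) and -0.25 in MDA-MB-231, and IL11 read 0.03 in SW1990 and -1.03 in MDA-MB-231, where it is bright. IL32 was higher in both, from 26.1 to 48.5 in SW1990 and from 78.9 to 184 in MDA-MB-231, log2 ratios of 1.33 and 0.88, although its second probe read 0.33 in SW1990 and 1.06 in MDA-MB-231. IL24 read 0.71 and 1.01. A second IL24 probe read 1.55 and 1.02, but with only 1 channel well above background, so no size can be read from it. In limma's test over both lines, 0 of 32 members passed an adjusted p of 0.05, as did none of 20522 genes (0% higher and 0% lower). At an unadjusted p under 0.05, 7 were higher and 3 lower, 31.2% of the members tested against 19.03% of all genes. Among the higher ones was CCL2, whose mock cells were not well above background in either line. The lowest adjusted p of a member was 0.212, shared by IL24 (mean 0.86 ± 0.13, SE, n = 2) and IL32 (1.1 ± 0.16, SE, n = 2). Here and below, SE is limma's moderated standard error, which borrows spread from all genes tested.

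Averaged within lines and tested over the 5 lines with limma, 0 of 23 members passed an adjusted p of 0.05, against 37 higher (0.198%) and 30 lower (0.16%) of 18702 genes. At an unadjusted p under 0.05 there were 8 higher and 2 lower members, 43.5% of those tested against 20.4% of all genes. Of the higher ones, CCL2, CCL15 and IL7 had mock cells not well above background on some arrays. CCL2 came nearest, with a mean log2 ratio of 0.98 ± 0.16 (SE, n = 5) and an adjusted p of 0.0593. It was higher on 8 of 8 arrays, but on 4 of them mock cells were not well above background. IL7, a growth factor of lymphocytes, followed with 0.46 ± 0.09 (SE, n = 5) and an adjusted p of 0.0687. IL15, CXCL5 and IL32 had means of 0.24, 0.46 and 0.64, and CCL28 and IL37 of -0.34 and -0.53, with adjusted p between 0.113 and 0.210. Over the 8 arrays the log2 ratios of CCL16 ran from -0.14 to 0.44 and those of CCL24 from 0.05 to 0.34.

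Other genes of the pathway were read beside the members, with both channels above background. Of all genes, 1.4% were past 1 in the higher direction with si-PIR-2, 0.704% with si-PIR-3, 0.88% with miR-144-5p and 0.577% with miR-144-3p. With miR-204-5p the share was 0.752% in SW1990 and 0.66% in MDA-MB-231, with miR-130-5p 3.59% and with miR-130-3p 1.82%. In the lower direction the shares were 3.18%, 2.11%, 1.77%, 1.09%, 1.97%, 1.66%, 6.44% and 2.11%, in the same order. Of 18 NF-kB and AP-1 genes, of which 17 or 18 could be read per array, 6 were past 1 in the higher direction with miR-144-5p, 5 with miR-130-5p, 3 with si-PIR-2, 2 with miR-144-3p and 1 each with miR-130-3p and with miR-204-5p in MDA-MB-231, and 0 on the other arrays. One was past 1 in the lower direction, FOSL1 at -1.57 with miR-130-3p. The feedback inhibitor TNFAIP3 read 1.62 with si-PIR-2 and 0.16 with si-PIR-3, and 1.62 with miR-130-5p and 0.27 with miR-130-3p. BIRC3, an antiapoptotic NF-kB target, read 2.78 and 0.82 with the siRNAs and 1.38 and 1.63 with miR-144-5p and miR-144-3p. Of 16 interferon response genes, 13 to 15 could be read per array. In the higher direction, 2 of 14 were past 1 with miR-144-5p (MX1 at 1.07 and IFI6 at 1.30), 1 of 14 with miR-144-3p (IFI6 at 1.39) and 2 of 13 with miR-130-3p (IFI44 at 1.48 and IFNL1 at 1.63), and 0 on the other arrays. In the lower direction, 4 of 14 were past 1 with si-PIR-2 (IFIT1, IFIT2, IFIT3 and IFI44), 2 of 14 with si-PIR-3 (IFIT1 and IFI44) and 0 with miR-144-5p, miR-144-3p, miR-130-3p and on both miR-204-5p arrays. With miR-130-5p, IFIT2 read -1.36 and IFIT1 was also past 1 in the lower direction. IFIT1, the usual interferon marker, read 0.11 and 0.04 with the miR-144 arms beside the CXCL10 and CXCL11 values there, and -2.19 and -1.57 with the siRNAs. Of the 16 to 20 receptor genes read per array, out of 32, 0 to 2 were higher and 0 to 1 lower, and of the 4 to 7 ligands under other names, out of 13, 0 to 2 and 0 to 1. The myeloid growth factor CSF2 read 1.26 and 0.83 with the siRNAs and 1.11 and 1.02 with the miR-144 arms. Whether these genes have a part in the members' values was not tested.

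CCL3, CCL3L3 and CCL4L2 have near-identical copies, so their probes may read several genes. CCL3 was detected in mock cells of SW1990 and MDA-MB-231 and read 0.00 and -0.16 there with miR-204-5p.

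Several of the most extreme scanner ratios belong to dim genes of which no size can be read. CXCL6 in SK-MES-1 read 2.22 with miR-144-5p and 2.71 with miR-144-3p, yet its spot signals were 24.9 and 33.2 against 21.3 and 22.0 in mock cells, at least 1.07-fold and 1.14-fold higher. IL34, a ligand of the CSF1 receptor, read 2.53 with miR-144-5p (at least 1.11-fold higher), CCL3, a macrophage inflammatory protein, 2.49 with miR-130-3p (at least 1.14-fold) and IL21R 2.10 there (at least 1.14-fold). IL26 read -2.32 with si-PIR-2 (at least 1.1-fold lower), and IL12A, a subunit of interleukin-12, -1.59 with miR-204-5p in MDA-MB-231 (at least 1.09-fold lower). CCL26, an eosinophil chemokine, read -1.21 with miR-204-5p in SW1990 (at least 1.09-fold lower), and CXCL8 1.83 with miR-144-3p (at least 1.14-fold higher) and 2.15 with miR-130-5p (at least 1.23-fold higher). With si-PIR-2, CCL20 read 1.82 (at least 1.04-fold higher), CCL3L3 1.76 (at least 1.02-fold) and IL36G 1.23 (at least 1.01-fold). IL27, a cytokine of the interleukin-12 family, read 1.03 with si-PIR-3 (at least 1.01-fold higher), 1.68 with miR-144-3p (at least 1.02-fold) and 1.54 with miR-204-5p in SW1990, where transfected cells alone were well above background. IL17A, a T cell cytokine, read 1.89 with miR-144-5p (at least 1.05-fold higher) and -0.32 with miR-144-3p, where no bound could be had. CCL2 read 0.87 with miR-204-5p in SW1990, and no bound could be had there either.

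The remaining members read on all 8 arrays stayed within 1 on the log2 scale, CXCL12 and IL7 apart. The interleukin-4 receptor gene IL4R, bright in every line, ran from -0.30 to 0.68. IL15, which sustains natural killer cells, ran from 0.01 to 0.59, IL16, a ligand of CD4, from -0.05 to 0.75, IL17D from -0.30 to 0.43, IL9R from -0.28 to 0.61 and the monocyte chemokine gene CCL15 from -0.05 to 0.87. CXCL12, the ligand of CXCR4, ran from -0.39 to 1.11, and IL7 from 0.19 to 1.04, with mock cells not well above background where they passed 1. A second CXCL12 probe read -1.46 in SW1990 and -0.94 with miR-144-3p, where the main probe read -0.39 and 1.01, with both channels of the second probe well above background, and 0.36 with miR-144-5p. The second probe read 2.03 and 1.60 with the siRNAs and 1.58 and 1.09 with the miR-130 arms, with only 1 channel well above background. The CXCL12 probes thus disagree. IL7R, IL1B, IL24 and IL33, read in some lines only, are given above.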

How the data were processed

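Two-colour Agilent Human GE 60K arrays were read with Feature Extraction 11.5.1.1. The authors deposited scanner output, with spot signals in Cy3 and Cy5 (linear intensity) and a log10 ratio, red over green, already background corrected and dye normalized by that software. A value table they deposited repeats these log10 ratios (largest difference 0). Ratios were put on the log2 scale with control and outlier spots left out. A gene was represented by the probe well above background in most of the 16 channels, then the brightest. Bounds and the alternative ratios came from normexp background correction (offset 50) and loess in limma 3.58.1 (R 4.3.3), with Aquantile for channels. Means over arrays were tested against 0 by lmFit and eBayes with Benjamini-Hochberg adjustment over all genes tested, in one fit per comparison, over the genes read on every array used. The fits leave out the spread of mock cells. Steps were tested on simulated data.

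The text names members read on all 8 arrays, the 3 largest rises and 3 largest falls per array and the 3 highest mock levels per line. CXCL9, CCL19 and the unread genes were named after their values were seen. Members and gene lists were chosen with earlier results of these data known. Gene names are those of the array; 82 of 84 members had a RefSeq accession, and all 82 kept their symbol in RefSeq. Probe coordinates are hg19 and exons or untranslated regions were not assigned. Alternatives were normexp ratios, both channels above background, median centring, the mean over probes, no filter, the value table, a threshold of 1.5, all arrays in 1 fit, the line as a random block, and leaving out each line. Some genes of the lists are not reported here.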

Additional observations from a re-analysis of the deposited data

Results flagged for a closer look

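The effects of the 2 siRNAs against PIR in PC3 cells pointed in opposite directions for 2 members past 1 on the log2 scale. For CXCL6 the difference of si-PIR-2 minus si-PIR-3 was 2.89, and with normexp 2.10. For IL11 it was 2.30, and with normexp 1.55. With 1 array per siRNA these differences were not tested.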

How the results depend on the processing

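The number of members past 1 on the log2 scale, in either direction, depended on how dim spots were handled. In the order si-PIR-2, si-PIR-3, miR-144-5p, miR-144-3p, miR-204-5p (SW1990, then MDA-MB-231), miR-130-5p and miR-130-3p, the counts were 12, 7, 15, 13, 5, 4, 12 and 13, with normexp ratios 2, 2, 4, 4, 0, 0, 1 and 3, and with both channels above background 6, 5, 9, 7, 3, 3, 4 and 5. At a threshold of 1.5 they were 6, 0, 10, 7, 1, 1, 6 and 7. Without the filter on dim probes the miR-204-5p counts were 8 in SW1990 and 13 in MDA-MB-231. Shares of all genes are given above for the scanner ratios at a threshold of 1, with the filter and with both channels above background. They are not given for the other settings, whose counts cannot be read against a background. Normexp with an offset pulls dim ratios towards 0 by its construction. Median centring, the mean over probes and the value table left each count within 1.5 times of its value. No named ratio past 1 turned its sign with normexp or with the mean over probes.

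The tests called 0 members under the planned settings apart from 2. With normexp ratios miR-204-5p called 2, IL18 (mean 0.41, adjusted p = 0.0348) and IL24 (0.33, adjusted p = 0.0440), with 742 higher and 607 lower of all genes where the scanner ratios called 0 and 0, or 0 and 5 with both channels above background. With all 8 arrays and the line as a random block the test over lines called 1, CCL2 (mean 1.03, adjusted p = 0.00918), with 250 higher and 117 lower of all genes. In that test over lines, the counts of all genes were 101 and 51 with both channels above background, 151 and 52 with normexp, and 19 and 18 with the mean over probes. With median centring they were 17 and 30. The causes of these moves were not tested. Leaving out each line in turn left 0 to 0 members called, and 0 to 2 higher and 2 to 7 lower of all genes. Leaving out 1 of 2 arrays leaves a value with no test. No paired analysis was possible because each transfection has 1 array.

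The main limits are the floor of dim spots, 1 array per transfection, 1 dye orientation and mock cells that received no RNA.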
